A study of Mus musculus with 4 samples.

Results

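The cells described here are radial glia of the mouse cortex at E18.5 of gestation that carried no transcript of the oligodendrocyte gene Olig1. They were picked from a single-cell RNA-Seq table by their own values. A cell was a member if it had at least 1 UMI (unique molecular identifier, 1 captured transcript) of Fabp7, UMIs of at least 3 of the 5 genes Slc1a3, Sox9, Hes1, Aldoc and Ttyh1, and none of Olig1, Top2a, Dlx1, Dlx2 and Eomes. The rule found 242 of the 6562 cells. Before it was applied, 224 cells were set aside because their barcode occurred in all 4 libraries (56 barcodes, each in every library), which left 6338 cells, and 1 member shared its barcode with some but not all of the other libraries. Since these 11 genes chose the cells, their levels against other cells are given as a description and were not tested.

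Radial glia are the neural stem cells of the developing cortex. Their bodies line the ventricle, a long fiber guides newborn neurons to the cortical plate, and Notch signaling from neighboring cells holds them back from becoming neurons by turning on Hes genes. Late in gestation neuron production declines and the same cells begin to give rise to glia, so progenitors that still express neurogenic genes and progenitors that express astrocyte genes can be present side by side.

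The study asked how loss of 1 copy of the chromatin gene Setd5 alters the developing cortex. Libraries WT3 and WT6 came from wild type (Setd5+/+) fetuses and libraries Het5 and Het9 from Setd5+/- fetuses, which carried the Setd5 GFP transgenic allele, all of strain C57BL/6J, with 1 fetus per library. Cortical cells were sorted as CD24+ CD45- before capture with the 10x 3' v2 kit, so the sort favored neurons, and radial glia were recovered only as far as they passed that gate. The members numbered 38 in WT3, 91 in WT6, 66 in Het5 and 47 in Het9. The libraries held 8205330 to 11742956 UMIs each, and the members had a median of 6717 UMIs per cell against 5718 in the 6096 other cells. Setd5 itself was lower in both Setd5+/- libraries. Its mean over members, in counts per 10000 UMIs of a cell, was 1.54 in WT3 and 1.001 in WT6, against 0.526 in Het5 and 0.633 in Het9. Where 4 values are given without names, they follow the order WT3, WT6, Het5, Het9.

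The 5 radial glial markers (Fabp7, Slc1a3, Sox9, Hes1 and Aldoc) were all genes of the rule, so their levels above the other cells in every library do not check the label. It was checked only against markers of other cell types. S100b, a marker of mature astrocytes, and Pdgfra, a marker of oligodendrocyte precursors, had 0 UMIs in 242 members, which allows a share of up to 1.24% of members with a UMI. Other astrocyte markers were found in members. Gja1, a gap junction gene of astrocytes and radial glia, had a UMI in 69 members (28.5%) and in 1.15% of excitatory neurons. Aldh1l1, an astrocyte enzyme of folate metabolism, had one in 38 members (15.7%) and in 0.1999% of those neurons. Aqp4 and Gfap, further astrocyte genes, had a UMI in 4 and 5 members. In the list of 6 astrocyte markers 5 lay above the other cells on average, 3 of them in every library, and the list summed to 1.92 counts per 10000 in the members and 0.409 in the other cells. Of the other 4 precursor markers Nkx2-2 had a UMI in no member, Sox10 and Cspg4 in 1 each and Olig2 in 19. Of the 5 endothelial markers Cldn5 and Flt1 had a UMI in none, Pecam1 in 1, Kdr in 2 and Egfl7 in 10. The CD45 gene Ptprc had none. The summed level of the 5 excitatory neuron markers was 0.579 counts per 10000 in the members and 13.8 in the other cells. It was 26.5 in excitatory neurons (the 2001 cells with UMIs of Neurod2, Neurod6 and Bcl11b or Fezf2 and none of Top2a). Those neurons were chosen by Neurod2 and Neurod6, which are among these markers. For the sort gene itself, Cd24a averaged 2.61, 3.30, 3.10 and 2.12 counts per 10000 in the members, and 13.0 to 15.2 in the other cells of those libraries. A Cd24a UMI was found in 74.8% of members (95% exact binomial interval 68.8 to 80.1) and in 97.7% of excitatory neurons (median 5790 UMIs). Intervals cover counting error only. The summed levels of the inhibitory neuron, oligodendrocyte precursor, choroid plexus, microglial, endothelial, pericyte, leptomeningeal, melanocyte and ependymal markers lay between 0.0446 and 0.286 counts per 10000 in the members. These low sums were above those of the other cells for pericyte (0.286 against 0.0322, with a Pdgfrb UMI in 28 members), ependymal (0.222 against 0.0387), endothelial (0.115 against 0.0408), leptomeningeal (0.0780 against 0.0109), melanocyte (0.216 against 0.134) and precursor markers (0.195 against 0.160). They were below them for inhibitory neuron (0.161 against 2.57), choroid plexus (0.225 against 0.525) and microglial markers (0.0446 against 0.278). Cortical hem markers summed to 0.730, with none in WT3, against 0.417 in the other cells. Erythroid markers were far higher, at 17.7, 5.82, 74.3 and 29.8 in the 4 libraries, with a mean of 31.9 against 39.4 in the other cells.

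At the border of the rule, 49 cells had Fabp7 and exactly 2 of the 5 further genes, and their median Fabp7 was 12.5 counts per 10000. The 60 cells just inside, with exactly 3, had a median of 28.3, and the 58 cells with all 5 had 41.1. A UMI of Dcx, a gene of migrating neurons, was found in 42.9% of the cells just outside and in 13.3% of those just inside. Only 4 cells met every other condition and had no Fabp7.

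Radial glial and stem cell genes outside the rule were also higher in the members than in the other cells. Of 8947 genes with at least 0.1 counts per 10000 in either set, 28.4% were higher in the members in all 4 libraries and 27.1% were lower in all 4. Among 21 genes of radial glial structure and stem cell identity, 18 were higher in all 4 libraries and 1 was lower, with a median log2 fold of 1.96 against 0.03 over all genes. Vim, an intermediate filament of the radial fiber, averaged 23.4 counts per 10000 in members and 4.49 in other cells. Dbi, a lipid-binding protein of neural progenitors, averaged 47.2 and 7.71. Nes, the intermediate filament nestin, averaged 2.02 and 0.385, and the exception was Fabp5, a fatty acid-binding protein, at 4.80 in members and 8.16 in other cells.

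Outside the rule, the 15 genes with the largest fold over the other cells included Mt3, Mt2, Mt1, Sparc, Ccdc80, Clu, Ddah1, Pdpn, 1500015O10Rik, Rgcc, Fgfbp3, Gas1, Igfbp5 and Hes5. Their folds of mean counts per 10000 (with 0.1 added) ran from 12.1 for Mt3 to 6.96 for Hes5, and each was higher in the members of all 4 libraries. Several are known from astrocytes and their precursors: Clu and Sparc are secreted proteins, and Pdpn is a membrane glycoprotein. Gas1 is a co-receptor for Hedgehog ligands.

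**Figure D1:**
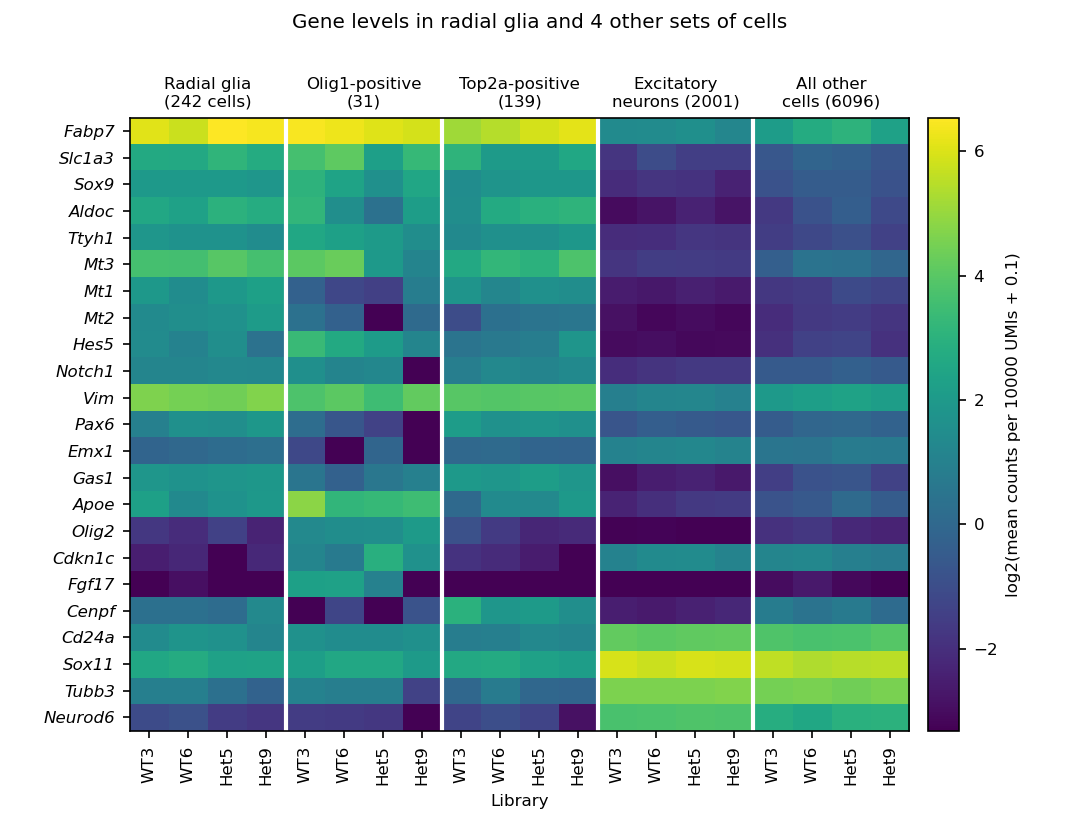
Mean level of 23 genes per library, as log2 of counts per 10000 UMIs with 0.1 added, in radial glia, in the Olig1-positive and Top2a-positive cells of the same rule, in excitatory neurons and in all other cells. The upper rows (from Fabp7 to Vim) are brighter in all 4 radial glial columns than in neurons, while Cd24a, Sox11, Tubb3 and Neurod6 show the reverse.

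The metallothioneins, small proteins that bind zinc and copper, headed that list. Mt3, the brain form, averaged 12.4, 12.1, 15.8 and 12.4 counts per 10000 in the members, and 0.701 to 1.26 in the other cells. Mt1 averaged 3.70, 2.65, 3.69 and 4.82, and Mt2 averaged 2.52, 2.81, 3.06 and 4.13. All 3 were far above the other cells in every library, and Mt3 UMIs were present in 87.2% of members and 10.4% of excitatory neurons. The 3 genes lie close together on chromosome 8, on the plus strand, and their promoters are shown because these neighbors, all high in members, differed in pattern among the groups of members described further on. Each window of RefSeq on GRCm38.p6 spans the start of the gene, the capitals mark matches to TGCACNC or TGCGCNC, the forms of the core of the metal response element, and a match on the opposite strand reads GNGTGCA or GNGCGCA. The Mt3 window is chr8:94152357-94152656, the Mt2 window chr8:94172368-94172667 and the Mt1 window chr8:94178839-94179138.
Mt3: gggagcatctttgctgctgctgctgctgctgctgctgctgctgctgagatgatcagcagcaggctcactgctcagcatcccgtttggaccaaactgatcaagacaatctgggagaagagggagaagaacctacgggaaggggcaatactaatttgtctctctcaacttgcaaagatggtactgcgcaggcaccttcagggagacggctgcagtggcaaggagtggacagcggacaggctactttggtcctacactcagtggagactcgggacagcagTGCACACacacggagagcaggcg
Mt2: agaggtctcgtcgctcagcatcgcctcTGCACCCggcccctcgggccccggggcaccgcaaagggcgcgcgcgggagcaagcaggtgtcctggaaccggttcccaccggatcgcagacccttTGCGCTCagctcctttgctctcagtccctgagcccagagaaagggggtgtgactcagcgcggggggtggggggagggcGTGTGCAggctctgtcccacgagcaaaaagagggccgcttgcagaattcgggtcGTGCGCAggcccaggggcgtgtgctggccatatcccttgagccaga
Mt1: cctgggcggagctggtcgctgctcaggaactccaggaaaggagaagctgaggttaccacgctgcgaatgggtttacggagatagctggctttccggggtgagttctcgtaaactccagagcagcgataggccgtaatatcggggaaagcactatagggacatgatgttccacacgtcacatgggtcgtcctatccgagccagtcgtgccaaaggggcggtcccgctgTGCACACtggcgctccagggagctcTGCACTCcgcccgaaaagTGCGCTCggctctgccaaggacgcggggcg

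The Mt2 window held 4 matches, 2 on each strand, Mt1 held 3, all on the plus strand, and Mt3 held 1, on the plus strand. No matches overlapped. Of 32851 mouse promoter windows in the same table, 25.7% held at least 1 match, 1.97% at least 3 and 0.517% at least 4. A match is a description of the letters and not a binding site.

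Among Notch genes, receptors and targets were higher in the members than in the other cells and most ligands were not. Of 10 receptors and modifiers, 5 were higher and 3 lower in all 4 libraries. Notch1, the main receptor of cortical progenitors, averaged 2.15, 2.16, 2.36 and 2.28 counts per 10000, against a mean of 0.624 in other cells, with a UMI in 75.2% of members. Notch2 and Notch3 averaged 1.33 and 0.374 against 0.126 and 0.0287. All 6 measured genes of the Notch target list (Hes5, Hey1, Hey2, Nrarp, Id1 and Id4) were higher than in the other cells in all 4 libraries, with a median log2 fold of 1.80. Of these, Id1 and Id4 are also in the BMP response list used further on. Of the 5 ligands 0 were higher in all 4 libraries and 3 were lower in all 4. Dll1, the ligand of cells committing to neurons, had a UMI in 22 members (9.09%) and in 7.25% of excitatory neurons. Jag1 had one in 20 members (8.26%) and in 0.900% of those neurons. Dll3 was found in 3 members, and Dll4 and Jag2 in none. Of the modifiers, Lfng, a glycosyltransferase acting on Notch receptors, averaged 0.864 against 0.0669, whereas its relative Mfng averaged 0.159 against 1.22.

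Hes5, a repressor of neuronal genes, had a UMI in 57.4% of members (exact binomial interval 50.9 to 63.7) and in 1.35% of excitatory neurons. Its means were 2.59, 1.95, 2.87 and 1.22 counts per 10000. The lowest library was Het9 and the highest Het5, so the genotypes overlapped. The Hes5 promoter (chr4:154960673-154960972, plus strand) is shown as the window of the Notch target with the largest fold among those 6, with TGGGAA, the core of the RBPJ motif, in capitals. RBPJ is the DNA-binding partner of cleaved Notch, and a match on the opposite strand reads TTCCCA.
Hes5: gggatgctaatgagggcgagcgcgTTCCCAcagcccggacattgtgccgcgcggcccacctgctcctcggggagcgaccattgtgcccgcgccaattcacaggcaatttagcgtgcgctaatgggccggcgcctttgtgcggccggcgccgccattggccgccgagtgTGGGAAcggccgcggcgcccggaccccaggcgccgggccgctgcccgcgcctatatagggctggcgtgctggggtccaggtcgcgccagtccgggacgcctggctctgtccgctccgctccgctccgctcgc

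The window held 2 matches, 1 on each strand, without overlap. Of all 32851 promoter windows, 25.6% held at least 1 match and 3.79% at least 2.

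Emx1 and Emx2 are transcription factors of the pallium, the dorsal region that gives rise to the cortex. A UMI of Emx1 or Emx2 was found in 156 of 242 members, and a UMI of Gsx2, Nkx2-1 or Six3, transcription factors of the subpallium, in 41. Both kinds were found in 16 members and neither in 61. Emx1 UMIs were present in 37.6% of members and in 61.6% of excitatory neurons, which also descend from the pallium. Emx2 UMIs were present in 43.8% of members and in 17.6% of those neurons. Emx2 was also found in the group of members with the least Emx1, described further on, so the 156 were not read as pallial cells. Gsx2 UMIs were present in 4.13% of members against 0.250% of excitatory neurons, and Six3 UMIs in 11.6% against 1.499%.

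Genes of the cortical hem and choroid plexus, at the medial edge of the pallium, came from few cells. Rspo1, a Wnt-enhancing ligand, had a UMI in 10 members (4.13%) and in 0.04998% of excitatory neurons. Ttr, the main transcript of choroid plexus, had one in 5 members (2.07%) and in 0.550% of those neurons. Rspo3, a further Wnt-enhancing ligand of the hem, had 91 UMIs in 7 members (2.89%), and reached 53.5 counts per 10000 in 1 of them. Its share of cells was lower than in the neurons (9.60%) while its mean level was higher (0.602 against 0.318 counts per 10000), so no order was read from it. WT3 had none of these 3 genes in its 38 members. Foxj1, a regulator of motile cilia in ependymal cells, had a UMI in 23 members (9.50%) and in 1.10% of excitatory neurons. Sfrp1, a secreted Wnt inhibitor of the ventricular zone, averaged 4.31 counts per 10000 against 1.08 in the other cells, and was higher in all 4 libraries.

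Of 19 astrocyte maturation genes, 12 were above the other cells in all 4 libraries and 4 were below in all 4. Apoe, a lipid carrier of glia, averaged 4.72, 2.46, 3.14 and 3.70 counts per 10000 in the members and 0.659 in other cells. Id3, Sparc and Mlc1 averaged 1.67, 2.83 and 1.03 against 0.159, 0.224 and 0.0872. S100b and Agt, genes of mature astrocytes, had no UMI. Nfib and Nfix, gliogenic factors that neurons also express, were lower than in the other cells in every library (10.2 and 6.25 against 15.5 and 8.90). Hopx, a gene linked to outer radial glia and to gliogenic progenitors, was found in 51 members (21.1%) and in 1.35% of excitatory neurons. Of 10 genes of outer radial glia, 7 were higher than in other cells in all 4 libraries.

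Although cells with Top2a had been left out by the rule, the members were not free of cell cycle transcripts. A UMI of Mki67, Cdk1, Ccnb1 or Birc5, genes of the G2 and M phases, was found in 90 of 242 members (37.2%). Of 12 S phase genes, 8 were higher in the members than in the other cells in all 4 libraries, and of 10 mitosis genes 1 was higher in all 4 and 4 were lower in all 4. The summed level of the mitosis genes was 6.31 counts per 10000 in members, 8.75 in other cells and 21.7 in the 139 cells that met the same rule except for carrying Top2a. No cell is called cycling from these shares.

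A comparison with the 31 cells of the same rule that carried Olig1 and none of the other 4 excluded genes shows what the exclusion of Olig1 removed. Those cells numbered 6, 15, 7 and 3 in WT3, WT6, Het5 and Het9, so their library means rest on few cells, and values here are means over cells. Olig2, the partner of Olig1, averaged 0.179 counts per 10000 in members and 2.83 in Olig1-positive cells. Fgf17, a signaling ligand of the rostral patterning center, averaged 0.0118 and 3.73, and Cdkn1c, an inhibitor of cell division, 0.0779 and 3.14. The other genes lowest in members were Spry1, Zic4, Nkx2-1, Serpine2, Nkd1, Chst2 and Vcan, with folds of 0.109 to 0.207. Of these 10 genes, Cdkn1c, Olig2, Zic4, Serpine2, Nkd1 and Vcan were lower in members in every library, and Fgf17 was lower in WT3, WT6 and Het5 and at 0 in both sets in Het9.

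In the other direction, the 10 genes highest in members over Olig1-positive cells were Cenpa, Cdc20, Neurog2, Dmrta2, Cdca8, Knstrn, Hba-a2, 1500015O10Rik, Hbb-bt and Hba-a1. Cenpa, Cdc20, Cdca8 and Knstrn act in mitosis. The globin means rest largely on 3 members described further on, and the median over members was 0 for Hba-a2 and Hbb-bt and 1.43 for Hba-a1. Neurog2, the main neurogenic factor of the pallium, averaged 1.70 counts per 10000 over members and 0.0573 over Olig1-positive cells, and Dmrta2, a factor of medial pallial patterning, 1.44 and 0.0467. Pax6, a pallial progenitor factor, averaged 2.88 over members and 0.524 over Olig1-positive cells. The Hes5 level went the other way, at 2.16 in members and 6.15 in Olig1-positive cells, and was lower in members in all 4 libraries. Fabp7 was alike in size in both sets (72.8 and 75.2).

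The 242 members were also clustered on their own, which gave 5 groups. Every group held cells from all 4 libraries. Group 0 (88 cells) was led by Neurog2, Neurod1, Dll1, RP23-291B1.2 and St7l. Neurog2 averaged 3.58 counts per 10000 in it and 0.629 in the other members, with a UMI in 51 cells, whereas its Neurod1 level came from 3 cells. It also had the highest Emx1 of the 5 groups, at 1.64. The ligand Dll1 averaged 0.409 in it, with a UMI in 16 cells, and 0.0878 or less in each of the others.

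The leading genes of group 1 (51 cells) included Meg3, Fgf15, H19 and Lsamp. Meg3 and H19 are imprinted noncoding RNAs and Fgf15 is a growth factor of progenitors. Emx1 averaged 0.0326 counts per 10000 in it and Pax6 0.799, against Six3 at 1.01 and the Hedgehog receptor Ptch1 at 1.502. Emx2 averaged 0.774 in it, and 0.511 to 1.10 in the other groups. Six3 was 0.147 or lower in each of the other groups. Apoe reached 9.02, and was 2.38 or lower in the others. Olig2 averaged 0.749 in group 1 and at most 0.0885 in the others, with Olig1 at 0 by the rule.

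Group 2 (45 cells) was led by Cdc20, Cks2, Rspo3, Rspo1 and Ccnb1. Cdc20, Cks2 and Ccnb1 act at mitosis, and Ccnb1 averaged 3.36 counts per 10000 in it with a UMI in 36 cells. Its Rspo3 came from 6 cells and its Rspo1 from 7. Group 3 (39 cells) was led by Ebf1, Ung, Chaf1a, Brca2 and Gins2, of which Ebf1 came from 2 cells and the others act in DNA replication and repair. Ung averaged 2.83 and Gins2 1.84 in it, against 0.344 and 0.325 in the other members. The highest means of these mitotic and replicative genes thus lay in different groups. A UMI of the S phase list was found in 219 of all 242 members, and in 137 of the 147 with a UMI of the mitosis list.

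Group 4 (19 cells) was led by Grin2b, Ntng1, Sparcl1, Dner and Cybrd1. Sparcl1, a secreted glial protein, averaged 1.83 counts per 10000 in it and 0.147 in the other members, from 9 cells. Tnc, an extracellular matrix protein of outer radial glia and astrocyte precursors, averaged 3.55, and 1.15 or lower in the other groups. Nr2f1, a patterning factor of the caudal cortex, averaged 8.93, and 4.15 or lower in the others.

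Fabp7 and Mt3 divided the groups in the same way. Fabp7 averaged 217 counts per 10000 in group 4 and 115 in group 1, and 34.9, 55.6 and 53.4 in groups 0, 2 and 3. Mt3 averaged 33.3 and 30.4 in groups 4 and 1, and 5.16, 6.93 and 6.50 in groups 0, 2 and 3. Slc1a3, the glial glutamate transporter, and Ptprz1, a receptor phosphatase, ran along with 11.7 and 11.4 in group 4 and 11.5 and 11.9 in group 1, and at most 5.49 and 4.65 elsewhere. Mt1 and Mt2 did not follow Mt3: Mt1 averaged 2.17 in group 1, the lowest of the 5 groups, and 5.08 in group 4. Mt2 averaged 2.84 in group 1, below its 3.84 in group 0, and 5.197 in group 4. Of the 47 members with Fabp7 over 100 counts per 10000, 36 were in groups 1 and 4, and of the 195 others 34 were. The clustering used these genes, so the groups describe the members and test nothing.

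**Figure D2:**
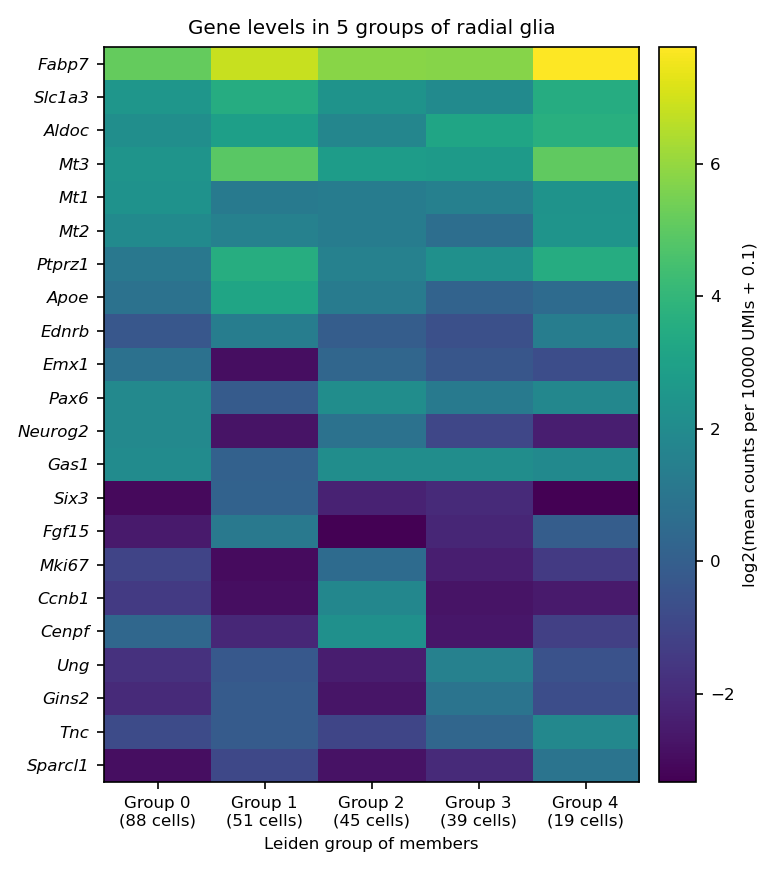
Mean level of 22 genes, as log2 of counts per 10000 UMIs with 0.1 added, in the 5 groups of radial glia. Fabp7 and Mt3 are brightest in groups 1 and 4, Neurog2 in group 0, Ccnb1 and Cenpf in group 2, and Ung and Gins2 in group 3.

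With the members described, the genotypes were compared. Radial glia made up 2.72% (exact binomial interval 1.93 to 3.71) of the cells in WT3 and 4.79% (3.88 to 5.85) in WT6. They made up 3.99% (3.10 to 5.05) in Het5 and 3.38% (2.50 to 4.47) in Het9. Both Setd5+/- libraries lay between the 2 Setd5+/+ libraries, and the mean difference was -0.07 percentage points (p = 1, exact two-sided permutation test, n = 2 fetuses per genotype). The smallest p that this design can give is 0.33. Whether a share follows from fewer cells formed or fewer passing the sort cannot be told apart.

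By their transcripts, the genotypes also differed in sex. Xist, the RNA of the inactive X chromosome, averaged 12.8, 13.3, 0 and 0 counts per 10000 in the members. The Y-linked genes Ddx3y and Eif2s3y were at 0 in both Setd5+/+ libraries and lay between 0.489 and 0.592 in both Setd5+/- libraries. Effects of genotype and of sex therefore cannot be told apart in any comparison that follows.

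Levels were compared with limma on log2(mean counts per 10000 + 0.1) with Benjamini-Hochberg adjustment over 8144 genes. Only 6 genes, 0.0737% of those tested, passed an adjusted p of 0.05. Ddx3y, Eif2s3y, Fabp7 and Hba-a2 were higher in Setd5+/- (4 genes, 0.0491%) and Xist and Tsix lower (2 genes, 0.0246%), while 342 genes had an unadjusted p under 0.05. The count was 18 without WT6, 11 without Het5, 2 without members with mitotic UMIs, 1 at a pseudocount of 0.01 and 0 without genes on X and Y (324 at an unadjusted p under 0.05). The calls of Ddx3y, Eif2s3y and Tsix were lost at that pseudocount and without the mitotic members, those of Ddx3y and Eif2s3y also without Het5 (adjusted p = 0.0810 and 0.164, limma) or Het9 (0.205 and 0.220), that of Eif2s3y at 3000 UMIs per cell (0.290) and that of Tsix without WT3 (0.0554). All but Fabp7 and Hba-a2 lie on the X or Y chromosome. Tsix is read from the strand opposite to Xist and overlaps it, and because the use of strand in counting is not given in the sources used here, its count cannot be told apart from Xist. The median log2 fold change over all genes was -0.01, and 32.6% of genes had no overlap between the genotypes (15.9% higher and 16.7% lower in Setd5+/-).

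**Figure D3:**
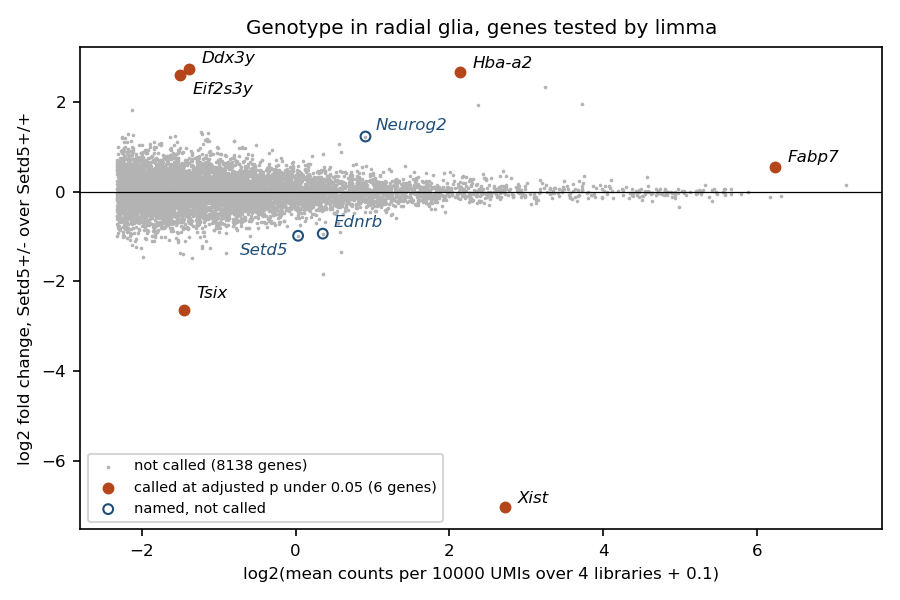
Log2 fold change of Setd5+/- over Setd5+/+ radial glia against log2 mean level for 8144 genes, with the 6 genes that passed an adjusted p of 0.05 filled and 3 named genes that did not pass it open. Fabp7 stands at the high end of expression with a small rise, and Xist far below 0.

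Fabp7 (chromosome 10, 57784881 to 57788450 of GRCm38, plus strand) encodes the brain fatty acid-binding protein, a classical marker of radial glia. Its mean over members was 67.5 counts per 10000 in WT3 and 54.1 in WT6, against 92.9 in Het5 and 85.2 in Het9. Both Setd5+/- libraries lay above both Setd5+/+ libraries, with a log2 fold change of 0.56 (SE 0.079, adjusted p = 0.0159, limma). The medians over cells were 36.2 and 34.7 against 44.9 and 47.4. Members with over 100 counts per 10000 made up 18.4%, 13.2%, 24.2% and 25.5% of the 4 libraries. The rule used Fabp7 only as present or absent and in both genotypes alike. With that condition dropped 4 cells were added, and Fabp7 was still called among 6 genes. So few cells could hardly move the means, so whether the choice of cells by Fabp7 affected the call was not tested. The call was lost at a pseudocount of 0.01 (adjusted p = 0.0668), without the genes on X and Y (0.0687) and without 3 members rich in globin (0.0709), with log2 fold changes of 0.53 to 0.56.

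Fabp7 was also averaged within the groups of members. In group 0 the means were 33.2, 37.8, 31.3 and 34.3 counts per 10000, and the genotypes overlapped. In group 1 they were 103 and 66.2 against 127 and 258, without overlap, the last from 6 cells. In group 2 they were 37.2 and 51.2 against 50.4 and 71.8, and in group 3 62.3 and 32.5 against 50.9 and 74.2, with overlap in both. In group 4 they were 195 and 165 against 289 and 117, from 2 to 8 cells a library, with overlap. The genotypes were thus apart in 1 of the 5 groups. The groups were clustered on these genes and hold few cells a library, and a difference between them was not tested.

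The same gene was examined in the sets of cells that the rule left out. In the 139 Top2a-positive cells, which are other cells of the same fetuses, the Fabp7 means were 35.0, 43.7, 59.8 and 69.8 counts per 10000, without overlap of the genotypes. The log2 fold change there was 0.72 (SE 0.11, adjusted p = 0.0241, limma over 8182 genes, of which 3, or 0.0367%, were called). Fabp7 was the 1 gene called higher there (0.0122%), Xist and Tsix were called lower (0.0244%), and 32.2% of genes had no overlap. In the 31 Olig1-positive cells the order was reversed, with 86.5 and 77.9 against 66.4 and 59.5, from 3 to 15 cells a library. In excitatory neurons the means were 2.55 and 2.58 against 2.87 and 2.19. The Top2a-positive cells were chosen by the same condition on Fabp7 and come from the same fetuses, so their rise is not independent support. The difference in fold change between the members and the Top2a-positive cells was -0.17 on the log2 scale (SE 0.53, adjusted p = 0.991, limma). The Fabp7 change was therefore not shown to be particular to the members. Since Fabp7 divided the members from all other cells, the difference from those is not given for it.

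**Figure D4:**
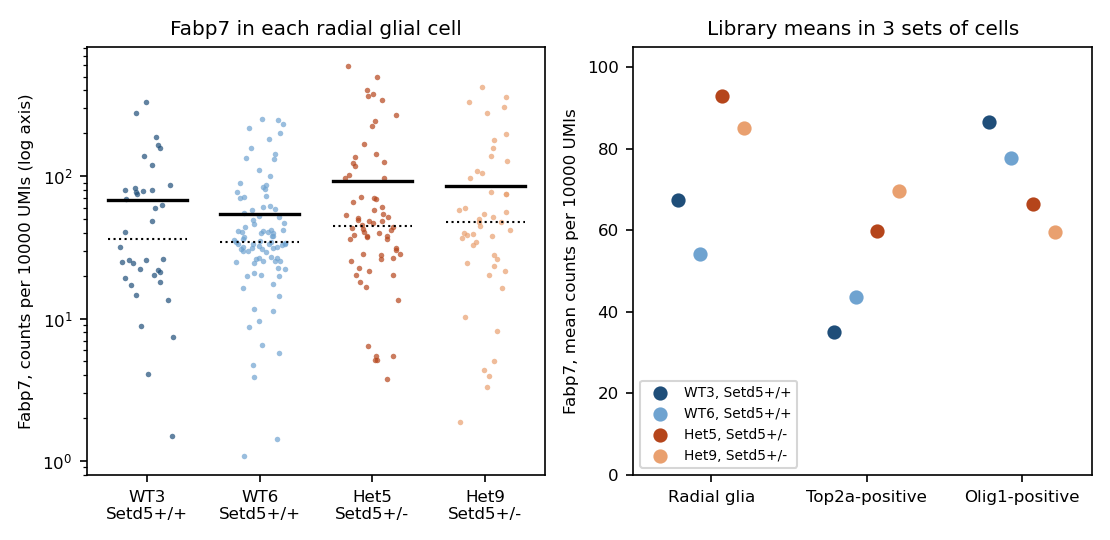
Left, Fabp7 in each member as counts per 10000 UMIs on a log axis, by library, with the mean as a solid and the median as a dotted line. Right, library means in radial glia, Top2a-positive and Olig1-positive cells. In the first 2 sets both Setd5+/- libraries are above both Setd5+/+ libraries, and in the third below them.

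The Fabp7 promoter is shown because Fabp7 was the gene of the rule called between the genotypes (chr10:57784673-57784972 of GRCm38.p6, plus strand, RefSeq window as above), with TGGGAA in capitals. It held 1 match, on the minus strand, at the far end from the start site.
Fabp7: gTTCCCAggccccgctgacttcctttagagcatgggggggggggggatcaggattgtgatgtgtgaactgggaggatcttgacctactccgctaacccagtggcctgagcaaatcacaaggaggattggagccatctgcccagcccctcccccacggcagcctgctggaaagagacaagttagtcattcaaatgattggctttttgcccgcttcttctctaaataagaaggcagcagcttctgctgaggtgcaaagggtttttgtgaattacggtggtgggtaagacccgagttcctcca

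The other autosomal call, Hba-a2, an alpha-globin gene, rested on single cells. Its means were 2.05, 0.489, 9.36 and 5.35 counts per 10000, without overlap (log2 fold change 2.67, SE 0.43, adjusted p = 0.0386, limma). Summed over Hba-a1, Hba-a2, Hbb-bs and Hbb-bt, 1 member of Het5 had 4530 counts per 10000, 1 of Het9 had 739 and 1 of WT3 had 374, while the next highest member of any library had 26.8. The medians were 7.30, 5.66, 5.29 and 13.6, close to the medians of the other cells in the same libraries (6.72, 5.76, 4.35 and 12.3). Without those 3 members the log2 fold change was 1.15 with an adjusted p of 0.968, and without members that had mitotic UMIs it was -0.05. Hba-a1 and Hba-a2 are near-identical copies, so their split is uncertain. The number of genes called was 4 without those 3 members, none of them autosomal.

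Setd5 itself (chromosome 6, 113077365 to 113153435, plus strand) was lower in both Setd5+/- libraries, with a log2 fold change of -0.99 (SE 0.26, adjusted p = 0.881 over all genes, limma). It had a UMI in 103 of 242 members. In all other cells the log2 fold change was -0.92, and the difference between members and other cells was -0.07 (SE 0.26, adjusted p = 0.9996, limma). Across all 8144 genes, 0 differed in genotype effect between members and other cells by limma (0.0%), with 378 at an unadjusted p under 0.05 and 32.2% without overlap.

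In the lists of radial glial genes, Fabp7 was the 1 gene that passed the test. Of 20 tested genes of radial glial structure 0 were called, 4 were higher and 2 lower without overlap, where 15.9% and 16.7% of all genes were, and the median log2 fold change was 0.07 against -0.01 for all genes. The nearest to a call was Ednrb, the endothelin receptor of progenitors and astrocytes, with means of 1.52, 1.64, 0.848 and 0.707 counts per 10000. Its genotypes did not overlap (log2 fold change -0.94, SE 0.21, adjusted p = 0.597, limma). Of the other genes of the rule, Aldoc averaged 5.89 and 4.92 against 7.91 and 6.87 (0.45, SE 0.13, adjusted p = 0.969, limma) and Slc1a3 averaged 6.21 and 6.03 against 8.70 and 6.59. Both had no overlap, and Sox9, Hes1 and Ttyh1 overlapped.

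Notch genes were not called either. Of 8 tested receptors and modifiers 0 passed, and 3 were higher and 2 lower without overlap (15.9% and 16.7% of all genes). Of 2 tested ligands and 5 tested targets 0 passed, and all overlapped. Rfng, a modifier of Notch receptors, had means of 0.687, 0.430, 0.151 and 0.190 counts per 10000 (log2 fold change -1.26, SE 0.33, adjusted p = 0.881, limma). Notch1 was among the 3 higher, with a log2 fold change of 0.10 (SE 0.16).

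In the neuronal differentiation list 0 of 11 tested genes were called. In 6 the Setd5+/- libraries lay below without overlap and in 1 above (16.7% and 15.9% of all genes), and the median log2 fold change was -0.38. Neurog2 was the 1 above, with means of 0.688, 1.27, 1.46 and 3.70 counts per 10000 (log2 fold change 1.23, SE 0.35, adjusted p = 0.969, limma). Tubb3, a neuronal tubulin, was among those below, at 1.84 and 1.82 against 1.15 and 0.755 (-0.90, SE 0.22, adjusted p = 0.828, limma). Its log2 fold change was -0.49 without members with neuronal UMIs and -0.14 with UMIs of at least 2 of the 5 further genes of the rule. The summed level of this whole list overlapped between the genotypes, at 15.6 and 20.2 against 16.7 and 19.0 counts per 10000. The sum of the 5 excitatory neuron markers was 0.680 and 0.826 against 0.510 and 0.300. Of those markers, Neurod2, Neurod6 and Tbr1 are also in this list, so the 2 sums are not independent.

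In the lists of pallial, subpallial and medial patterning, outer radial glia, astrocyte maturation, metallothioneins, oligodendrocyte lineage, immediate early genes, S phase, mitosis, cyclins and their inhibitors, FGF, Wnt and Hedgehog signaling, and BMP response, 0 genes were called. The list medians ran from -0.06 for cyclins and their inhibitors to 0.41 for metallothioneins. Of 13 pallial genes 4 were higher and 0 lower without overlap (15.9% and 16.7% of all genes), with a median of 0.15. Of the partners of Setd5 in the HDAC3-NCoR and PAF1 complexes, 0 of 12 passed, 1 was higher and 1 lower without overlap (15.9% and 16.7% of all genes), and the median was 0.14. Of 7 tested extracellular matrix genes chosen by the study, 0 passed, 1 was higher and 2 lower without overlap, and the median was -0.36. Of 12 tested genes that the study names for 1 of its clusters, 0 passed and 1 was higher and 5 lower without overlap, again beside 15.9% and 16.7% of all genes. The study describes that cluster by Dlx1 and Dlx2, which the rule excluded here, and reports its genes in both directions. Among the 5 lower here, Cadm1 is lower in the study too, while Abracl is higher there. Both lists were chosen by the study, so they are not independent evidence of a direction.

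Shares of members with a UMI were compared for 5 markers (Emx1, Hopx, Gsx2, Aqp4 and Egfr). Emx1 was found in 28.9%, 36.3%, 34.8% and 51.1% of members. Hopx was found in 31.6% and 12.1% against 16.7% and 36.2%. The genotypes overlapped for all 5, and p was 0.667 for Emx1, Hopx and Egfr and 1 for Gsx2 and Aqp4 (exact two-sided permutation test, n = 2 fetuses per genotype). Gsx2, Aqp4 and Egfr were each found in 10 members or fewer. For Hopx the exact binomial intervals of WT6 (6.19 to 20.6) and Het9 (22.7 to 51.5) did not overlap, but WT3 lay near Het9 and WT6 near Het5, so the libraries of each genotype differed as much as the genotypes did.

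**Figure D5:**
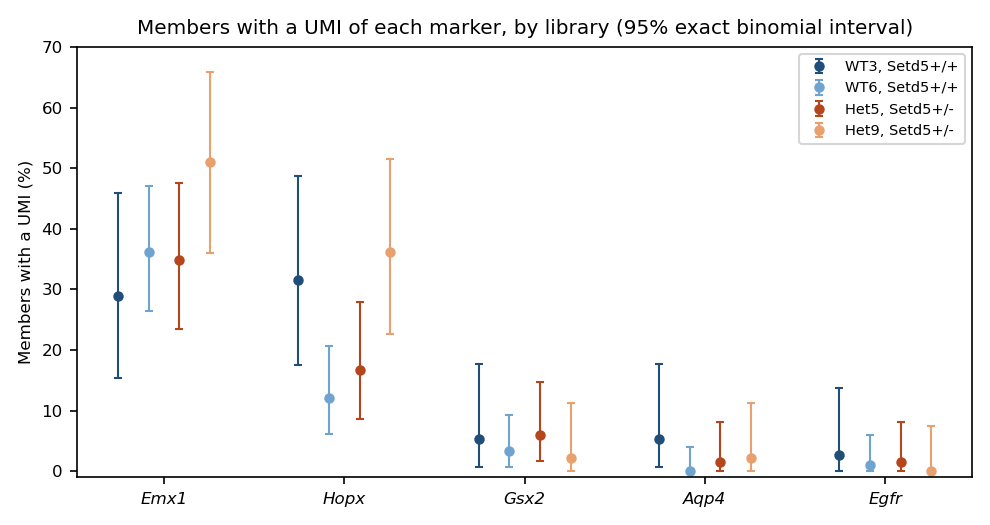
Percentage of members with a UMI of 5 markers by library, with 95% exact binomial intervals as bars. The genotypes overlap for each marker, and Hopx is high in 1 library of each genotype (31.6% in WT3 and 36.2% in Het9).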

How the data were processed

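Sorted cortical cells of 4 fetuses (2 per genotype) were profiled with the 10x 3' v2 kit. The deposited table holds 16600 genes in 6562 cells as natural log values, which the authors computed as ln(1 + UMIs per 10000 of a cell). The submitters' notes name Cell Ranger 2.1, Seurat 2.3.0 and mm10, and the gene annotation, use of strand and cell filter were not given in the sources used here.

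Whole UMIs were recovered from these values for 100% of entries (tolerance 0.001), so low levels are limited by counting. Cell names give the genotype of a library by prefix, and libraries are named by it. Levels are means over the members of a library, in counts per 10000. Genotypes were compared with limma 3.58.1 in R 4.3.3 (with a trend of variance on mean) on log2(mean + 0.1), for genes averaging 0.1 or more across libraries, at an adjusted p of 0.05. A fold change on that scale understates changes of low genes. Raw counts had been planned for, with this test as the fallback for log values, which was used. Fetuses, not cells, were replicates, and with 1 library per fetus p-values measure the spread between these 4 samples. Shares were compared with the exact permutation test, and bounds on a count of 0 use 3 counts. Doublets called by Scrublet in scanpy 1.11.5 within each library (64 cells, 0.975%, 2 of them members) were kept. Members were clustered with the Leiden method (2000 variable genes, 15 principal components, 15 neighbors, resolution 0.5). Fits were also run on simulated data in which all cells of a library shared the same mean levels. The members vary more than that, so the simulation did not test calls that rest on few cells. Gene positions come from GENCODE M21 on GRCm38 and promoters from RefSeq on GRCm38.p6, which matched all 5 genes shown.

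The members and gene lists were chosen with earlier results of these data known. Named genes are those of the rule, Setd5, genes of the lists by role, genes called with the genotypes apart, the 15 genes highest over other cells, the 10 highest and 10 lowest against Olig1-positive cells, and 5 leading genes per group. Erythroid genes beyond these and Cd24a were chosen after their values were seen. Alternatives were pseudocounts of 0.01 and 1, no filter, summed UMIs, thinning to 3000 UMIs, 2 or 4 of the 5 further genes, each library left out, and cells with neuronal or mitotic UMIs, doublets, or X and Y genes left out. 3 genes that these rules would name are not reported here, and the marker shares leave out 1 of the 6 planned markers. Other assays of the study were not analysed here.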

Additional observations from a re-analysis of the deposited data

How the results depend on the processing

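No paired analysis was possible because the cell names carry no replicate numbers of the labels. With 2 fetuses a genotype, opposite sexes and 38 to 91 members a library, small changes could not be resolved. The difference in the share of radial glia (-0.07 percentage points) turned positive with at least 4 (0.206) or 2 (0.0558) of the 5 further genes, and ranged from -1.11 to 0.967 with 1 library left out, being 0.967 without WT6 and 0.233 without Het9. Without members with mitotic UMIs it was -0.534. Het9 (1.66%) then lay below WT3 (1.72%), so the Setd5+/- libraries no longer both lay between the Setd5+/+ libraries. The number of genes called by limma (6) was 10 with at least 4 of those genes, 11 with no filter, 1 at a pseudocount of 0.01, 0 without X and Y genes (324 at an unadjusted p under 0.05), 2 without members with mitotic UMIs and 11 without members with neuronal UMIs. It was 8 to 18 with 1 library left out, reaching 18 without WT6 and 11 without Het5. Hba-a2 and Hbb-bs reversed without mitotic members (-0.047 and -0.32). The number of the 5 markers whose shares did not overlap (0) was 1 at 3000 UMIs per cell, 1 without members with mitotic UMIs and 1 to 4 with 1 library left out. Setd5 missed the threshold in all 15 alternatives tried for it (-1.27 to -0.51), and 0 genes differed in genotype effect from other cells in all 17 alternatives, of which 2 were chosen after seeing the data, or from Top2a-positive cells, also chosen then. The log2 fold change of Fabp7 ranged from 0.40 to 0.87. The causes were not tested.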
